A study of Mus musculus with 8 samples.

Results

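The GTPases of the immunity-associated protein family (GIMAP) are lymphocyte proteins that share a GTP-binding AIG1 domain and are encoded side by side in 1 gene cluster. The family was chosen with earlier results of these data known. All 8 mouse genes named for it on the array were taken: *Gimap1*, *Gimap3*, *Gimap4*, *Gimap5*, *Gimap6*, *Gimap7*, *Gimap8* and *Gimap9*. They are 8 of 29924 gene names and carry 10 of 39429 probes, since *Gimap4* has 3 probes and each other member has 1. Family members act in the survival and turnover of T cells: GIMAP1 and GIMAP5 are needed for the maintenance of peripheral lymphocytes, GIMAP3 and GIMAP5 have been linked to BCL-2 family proteins, GIMAP4 to T cell death and GIMAP6 to autophagy. GIMAP7 can stimulate GTP hydrolysis within the family, GIMAP8 is a large member with several GTP-binding domains, and GIMAP9 is little described.

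mRNA was measured on 8 one-color Agilent arrays, 1 for each of 4 CD4 T cell types at d12 and at d25 after s.c. immunization with keyhole limpet hemocyanin (KLH) and alum. All cells came from peripheral lymph nodes (pLN) of immunized mice of strain B6.Cg-Foxp3<tm1Mal>, in which GFP reports Foxp3, so that no group was free of the reporter allele or of the immunization. By the labels, mice were 8 to 14 weeks old, of mixed sex, and 8 to 15 of them were pooled for each sort (the study's methods also give somewhat lower ages and pool sizes), with 25 ng of RNA labeled per array. Naïve CD4 T cells were sorted as GFP- PD1lo GL7- cells, Treg cells as GFP+ PD1lo GL7-, T follicular helper cells (TFH) as GFP- PD1hi GL7+, and T follicular regulatory cells (TFR) as GFP+ PD1hi cells with or without GL7. Naïve CD4 T and Treg cells are called progenitors and TFH and TFR cells follicular cells in the following. As described, the naïve gate rests on PD1, GL7 and GFP among CD4+ cells. Levels are given in relative units (RU) of the normalized probe signal and differences on the log2 scale. A gene was called changed at a Benjamini-Hochberg adjusted p below 0.05 in limma, over all 15764 genes tested.

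The sorted cells carried the markers of their labels. The summed signal of 4 Treg markers (*Foxp3*, *Lrrc32*, *Ikzf2*, *Il2ra*) was 99414 to 119487 RU on the Foxp3+ arrays, 10860 to 11232 RU in TFH cells and only 771 to 773 RU in naïve cells. *Ikzf2* carried the sum in TFH cells (10506 and 10814 RU, against 9925 and 11103 RU in Treg cells), where *Foxp3* was at 66 and 83 RU. The sum of 4 follicular markers (*Cxcr5*, *Pdcd1*, *Bcl6*, *Il21*) was 147905 to 680125 RU in follicular and 9665 to 14417 RU in progenitor cells. All 8 T cell markers exceeded background on every array and summed to 960550 to 1399709 RU. Endothelial markers, a further known site of Gimap mRNA, summed to 1822 to 3427 RU with 2 of 8 genes above background on each array. B cell markers summed to 5926 to 10278 RU on 7 arrays and to 17720 RU in TFH cells at d25, with *Pax5* at the lower limit of 20 RU on all arrays. Myeloid markers summed to 17917 to 30570 RU and markers of CD8 T and NK cells to 3028 to 7780 RU. *Itgam* carried most of the myeloid sum (13020 to 28504 RU), with *Cd68* next in follicular cells (2333 to 5098 RU), while *Cd14* stood at 20 to 29 RU. Proliferation markers were higher in follicular cells, with 11989 to 45209 RU against 1827 to 5648 RU in progenitors, and the part of cycling or B cells in the Gimap differences was not tested. Between sorted pools, fewer expressing cells and less mRNA per cell cannot be told apart.

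The cluster lies on chromosome 6. In the build of the array files (NCBI37), the brightest probes of the members span 103.7 kb in the order *Gimap8* (chr6:48610775-48610834), *Gimap9* (chr6:48627839-48627898), *Gimap4* (chr6:48641817-48641876), *Gimap6* (chr6:48651666-48651725), *Gimap7* (chr6:48674271-48674330), *Gimap1* (chr6:48693409-48693468), *Gimap5* (chr6:48703501-48703560) and *Gimap3* (chr6:48714463-48714522). *Gimap6* and *Gimap3* are read from the minus strand and the other members from the plus strand. Since the genes are related copies, the 60-base probes were compared with each other. The longest stretch shared by probes of any 2 members was 9 bases. Matches of a probe to other parts of another member's transcript were not looked for. The files name no exon or untranslated part for a probe. The probes with an open reading frame within the first 1000 bases of a transcript are shown, to let the targets be compared between *Gimap7* and *Gimap4*, which fell most in TFH cells, and *Gimap9*, which did not. They are given 5′ to 3′ as in the files, all lie on the plus strand, and no letters are in capitals since no part is singled out.
Gimap7 probe: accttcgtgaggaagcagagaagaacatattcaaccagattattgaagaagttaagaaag
Gimap4 probe: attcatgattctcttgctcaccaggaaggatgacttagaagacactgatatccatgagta
Gimap9 probe: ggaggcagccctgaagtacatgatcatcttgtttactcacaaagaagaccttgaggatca

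The sequences just upstream of the genes were set beside each other because *Gimap4* and *Gimap7* fell most in TFH cells while *Gimap5* moved the other way. They are the 250 bases before the annotated start, 5′ to 3′ in the direction of transcription, from RefSeq on build GRCm38.p6, which differs from the build of the array files. All 8 members had an entry, and *Gimap8* had entries at chr6:48646984-48647233 and at chr6:48647111-48647360. Capitals mark the letters TGTGGT of the RUNX motif, which all read ACCACA here since they lie on the other strand.
Gimap4 upstream, chr6:48684328-48684577, plus strand: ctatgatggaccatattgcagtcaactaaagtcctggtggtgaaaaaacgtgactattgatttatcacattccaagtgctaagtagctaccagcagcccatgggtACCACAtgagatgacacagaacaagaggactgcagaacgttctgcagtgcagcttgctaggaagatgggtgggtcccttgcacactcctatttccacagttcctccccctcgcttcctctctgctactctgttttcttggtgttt
Gimap7 upstream, chr6:48718371-48718620, plus strand: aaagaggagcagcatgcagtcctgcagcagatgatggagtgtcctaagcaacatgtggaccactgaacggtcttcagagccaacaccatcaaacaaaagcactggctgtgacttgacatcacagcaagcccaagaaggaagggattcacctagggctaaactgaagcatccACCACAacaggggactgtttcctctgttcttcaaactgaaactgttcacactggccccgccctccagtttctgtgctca
Gimap5 upstream, chr6:48745947-48746196, plus strand: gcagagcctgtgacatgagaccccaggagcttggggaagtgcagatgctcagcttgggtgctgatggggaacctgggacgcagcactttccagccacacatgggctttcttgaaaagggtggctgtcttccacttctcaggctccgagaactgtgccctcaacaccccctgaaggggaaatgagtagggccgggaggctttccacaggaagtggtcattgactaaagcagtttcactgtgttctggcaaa

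RUNX letters were found upstream of 3 of the 8 members, *Gimap4* (position -145 from the start), *Gimap7* (-79) and *Gimap1* (-95), and in 14.0% of 32851 promoters of the same length. The search covered both strands, and matches of different motifs were allowed to overlap. A member was counted if any of its entries had the letters, whereas the shares are over single promoters. For *Gimap8*, ETS and STAT letters were found in the entry chr6:48647111-48647360 and not in chr6:48646984-48647233. The ETS core GGAAG was upstream of 8 of 8 members and in 64.1% of all promoters, the E box CANNTG of 6 members and in 66.2%, the KLF core CACCC of 5 members and in 52.0%. The STAT motif TTCNNNGAA was upstream of 2 members and in 7.0% of all promoters, the forkhead motif GTAAACA of *Gimap3* alone and in 3.2%, and the TCF and LEF motif CTTTGA of 0 members and in 13.8%. These are letter matches and not measured binding sites. *Gimap1*, which has the RUNX letters as *Gimap4* and *Gimap7* do, was not called in any of the comparisons made here.

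All 8 members were well above background on all 8 arrays, none was saturated, and at least 3 of 4 spots were retained for each. The SD of the retained spots of a member was at most 0.12 on the log2 scale, with a median of 0.04, and the spread between arrays served as error. Each cell type has only 2 arrays, and their number limits precision.

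**Figure D1:**
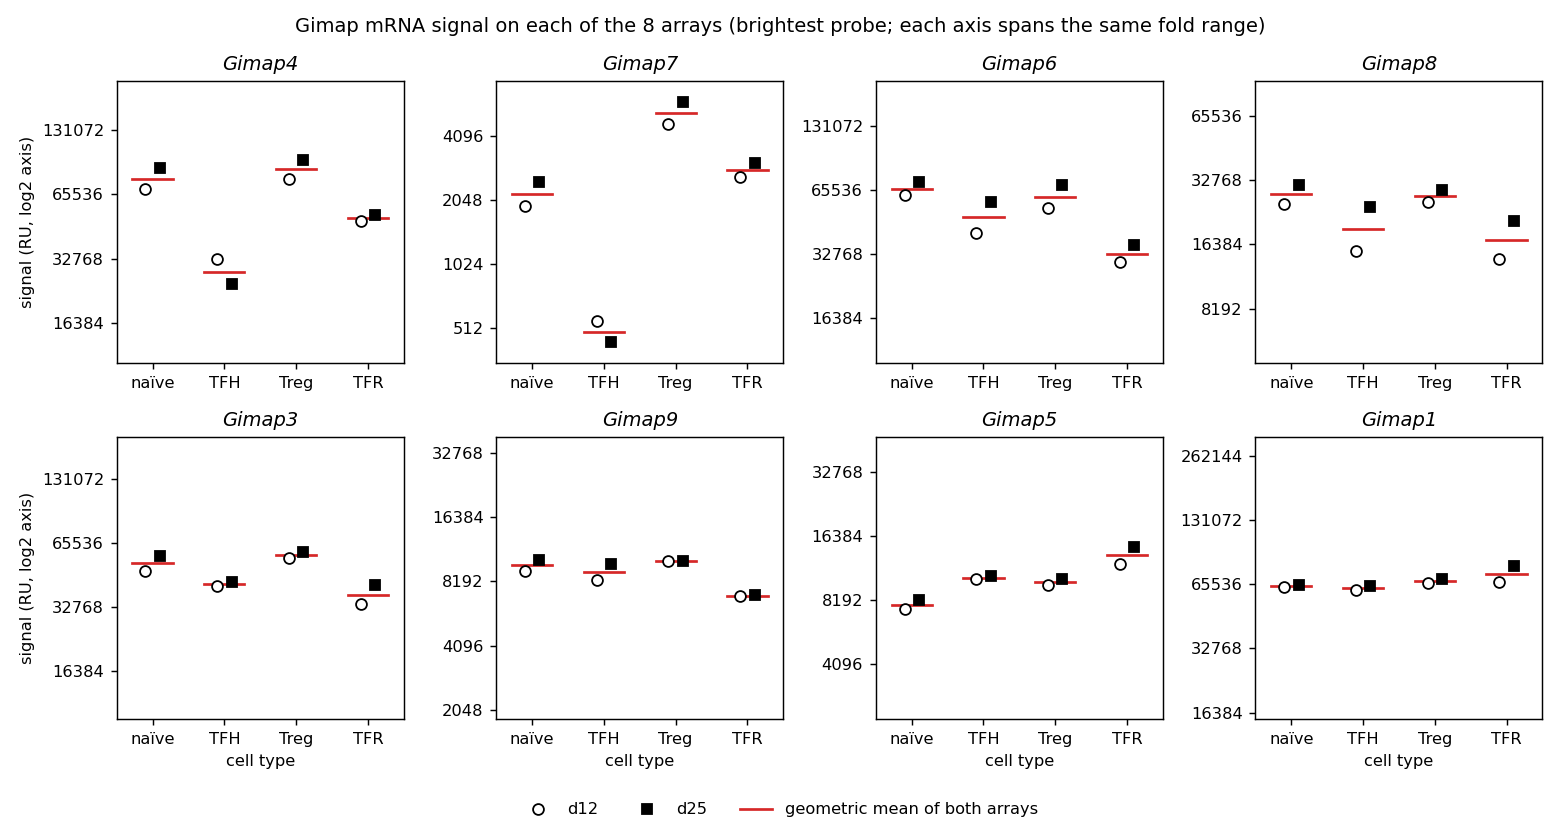
Signal of the 8 Gimap genes (RU, log2 axis with the same fold range in each panel) in the 4 cell types, with an open circle for the array at d12, a filled square for d25 and a red line for their geometric mean. *Gimap7* was lowest in TFH cells (442 and 552 RU) and highest in Treg cells (4685 and 5892 RU), whereas *Gimap1* stayed between 61335 and 80254 RU on all arrays.

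The main pattern was a fall of most members from progenitor to follicular cells, with *Gimap5* as the exception. When the mean of both follicular cell types was compared with the mean of both progenitors, 6 of 8 members were called lower, 1 was called higher and *Gimap1* was not called (0.04 ± 0.07 SE, adjusted p = 0.647). Of all genes tested, 33.2% were called lower and 25.9% higher in this comparison, so calls were frequent in general. The median difference of the 8 members was -0.54 and that of all genes tested -0.08. The falls ranged from -0.32 for *Gimap9* to -1.52 for *Gimap7*.

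Among members with a role in survival, *Gimap5* encodes a protein whose loss depletes lymphocytes. Its signal was 7401 RU at d12 and 8176 RU at d25 in naïve CD4 T cells, 10229 and 10631 RU in TFH, 9664 and 10272 RU in Treg, and 12156 and 14591 RU in TFR cells. Both TFR arrays were above all other arrays, both naïve arrays were below all others, and TFH and Treg cells overlapped. *Gimap5* rose from naïve CD4 T to TFH cells by 0.42 ± 0.09 (SE, adjusted p = 0.0187) and from Treg to TFR cells by 0.42 ± 0.09 (adjusted p = 0.0232). The rise was seen at both days in either lineage, with 0.47 and 0.38 for TFH and 0.33 and 0.51 for TFR cells. Both calls were lost without the day term. The TFH call was kept in 14 and the TFR call in 11 of 18 alternatives. Over the 18 alternatives of the closing section, the estimates ran from 0.35 to 0.48 for TFH and from 0.33 to 0.50 for TFR cells.

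*Gimap1*, likewise needed for the maintenance of mature T cells, was nearly even. For *Gimap1*, naïve cells gave 63395 RU at d12 and 65006 RU at d25, TFH cells 61335 and 64318 RU, Treg cells 66751 and 69228 RU, and TFR cells 67075 and 80254 RU. The ranges of naïve and TFH cells overlapped, as did those of Treg and TFR cells. The 95% interval of the difference ran from -0.28 to 0.22 for TFH versus naïve CD4 T cells, and the estimate for TFR versus Treg cells was 0.11 ± 0.10 (adjusted p = 0.403).

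*Gimap3* lies next to *Gimap5* and codes for its closest relative. For *Gimap3*, naïve cells gave 48450 RU at d12 and 56749 RU at d25, TFH cells 40957 and 43015 RU, Treg cells 55485 and 59450 RU, and TFR cells 33606 and 41603 RU. Follicular and progenitor arrays did not overlap, unlike for *Gimap5* where Treg and TFH cells did. *Gimap3* fell from Treg to TFR cells by 0.62 ± 0.10 (adjusted p = 0.00955), whereas the TFH versus naïve CD4 T difference of -0.32 ± 0.10 just missed the threshold (adjusted p = 0.0501). *Gimap3* and *Gimap5*, whose brightest probes are neighbors at the end of the cluster, thus differed in the sign of their follicular change.

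*Gimap4*, which encodes a protein linked to the death of activated T cells, was among the members with the largest changes. At its brightest probe, naïve cells gave 69417 RU at d12 and 86775 RU at d25, TFH cells 32569 and 24799 RU, Treg cells 77690 and 94969 RU, and TFR cells 49316 and 52404 RU. Progenitors were highest, TFH cells lowest, and TFR cells lay between them without overlap. *Gimap4* fell from naïve CD4 T to TFH cells by 1.45 ± 0.20 (2.73-fold, adjusted p = 0.00467) and from Treg to TFR cells by 0.76 ± 0.20 (1.69-fold, adjusted p = 0.0372).

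The other 2 *Gimap4* probes gave the same order of cell types and larger falls. At the probe shown above (chr6:48640752-48640811), naïve cells gave 7135 RU at d12 and 8354 RU at d25, TFH cells 2084 and 1863 RU, Treg cells 8463 and 9630 RU, and TFR cells 3484 and 3780 RU. At the middle probe (chr6:48641312-48641371) it was 11380 and 15254 RU, 3610 and 4090 RU, 12710 and 16032 RU, and 5900 and 6535 RU in the same order. The fitted difference between TFH and naïve CD4 T cells was -1.97 ± 0.13 at the first and -1.78 ± 0.11 at the middle probe, and that between TFR and Treg cells was -1.31 ± 0.13 and -1.20 ± 0.11. All 4 differences were called (adjusted p from 0.000505 to 0.00287 over all probes tested). The size of the *Gimap4* change therefore depended on the probe and its direction did not.

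**Figure D2:**
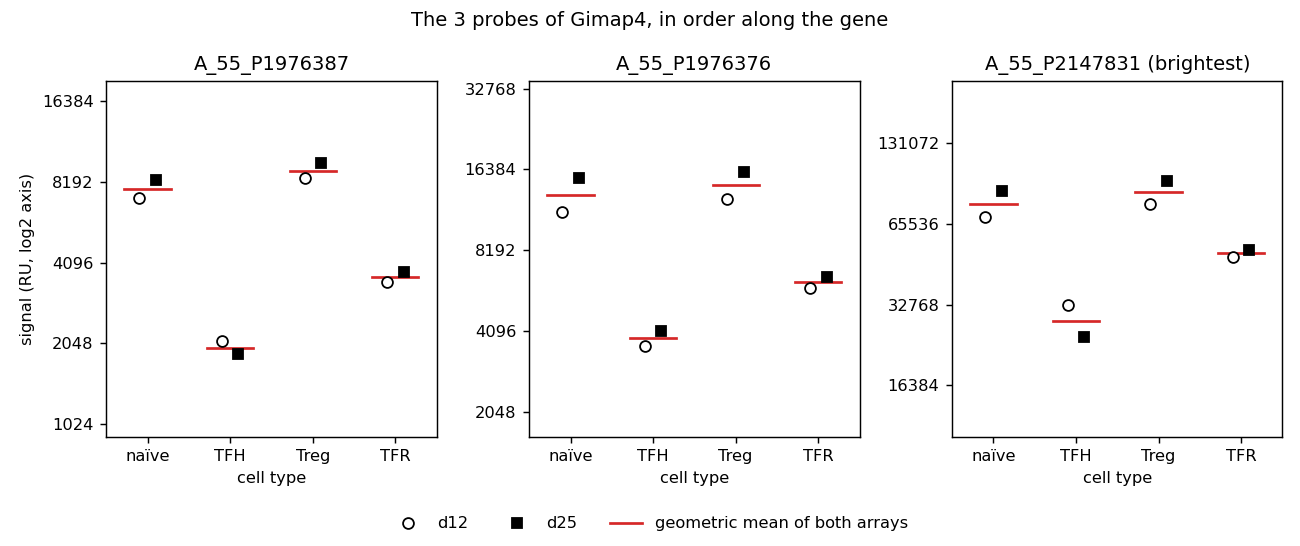
Signal of the 3 Gimap4 probes (RU, log2 axis with the same fold range) by cell type, from the most upstream probe on the left to the brightest on the right, with d12 as open circles, d25 as filled squares and the geometric mean as a red line. All 3 probes place TFH cells lowest and TFR cells between TFH and the progenitors, with TFH levels of 1863 and 2084 RU at the upstream probe and 24799 and 32569 RU at the brightest.

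*Gimap6* encodes a cytosolic member that interacts with an ATG8 protein of the autophagy pathway. For *Gimap6*, naïve cells gave 61971 RU at d12 and 71408 RU at d25, TFH cells 41339 and 57790 RU, Treg cells 53744 and 68875 RU, and TFR cells 29943 and 36156 RU. TFR cells were lowest on both arrays, and the TFH range overlapped that of Treg but not of naïve CD4 T cells. *Gimap6* fell by 0.89 ± 0.10 from Treg to TFR cells (adjusted p = 0.00414) and by 0.44 ± 0.10 from naïve CD4 T to TFH cells (adjusted p = 0.0216).

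*Gimap7*, a regulator of GTP hydrolysis in the family, had the widest range. For *Gimap7*, naïve cells gave 1920 RU at d12 and 2486 RU at d25, TFH cells 552 and 442 RU, Treg cells 4685 and 5892 RU, and TFR cells 2636 and 3052 RU. The 4 cell types did not overlap and ranked Treg, TFR, naïve CD4 T and TFH cells from high to low. *Gimap7* fell by 2.15 ± 0.19 (4.42-fold, adjusted p = 0.00135) from naïve CD4 T to TFH cells and by 0.89 ± 0.19 (1.85-fold, adjusted p = 0.0227) from Treg to TFR cells. Between the progenitors it was called too, being higher in Treg than in naïve CD4 T cells by 1.27 ± 0.19 (2.40-fold, adjusted p = 0.0229).

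For the large *Gimap8*, naïve cells gave 25492 RU at d12 and 31182 RU at d25, TFH cells 15267 and 24430 RU, Treg cells 25940 and 29356 RU, and TFR cells 13925 and 21100 RU. Follicular arrays were below all progenitor arrays, but the 2 arrays of each follicular cell type were far apart. *Gimap8* fell by 0.55 ± 0.15 (adjusted p = 0.0394) in TFH and by 0.69 ± 0.15 (adjusted p = 0.0242) in TFR cells against their progenitors. Both calls were lost with the slide in place of the day (adjusted p = 0.0716 and 0.0503), without the day term and with no filter on dim probes. For *Gimap9*, naïve cells gave 9183 RU at d12 and 10341 RU at d25, TFH cells 8357 and 9880 RU, Treg cells 10254 and 10247 RU, and TFR cells 6979 and 7053 RU. TFR cells stood below all other arrays, and the naïve range overlapped those of Treg and TFH cells, which did not overlap each other. *Gimap9* fell by 0.55 ± 0.10 from Treg to TFR cells (adjusted p = 0.0143), and the TFH versus naïve CD4 T difference was -0.10 with a 95% interval that included 0 (adjusted p = 0.452).

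**Figure D3:**
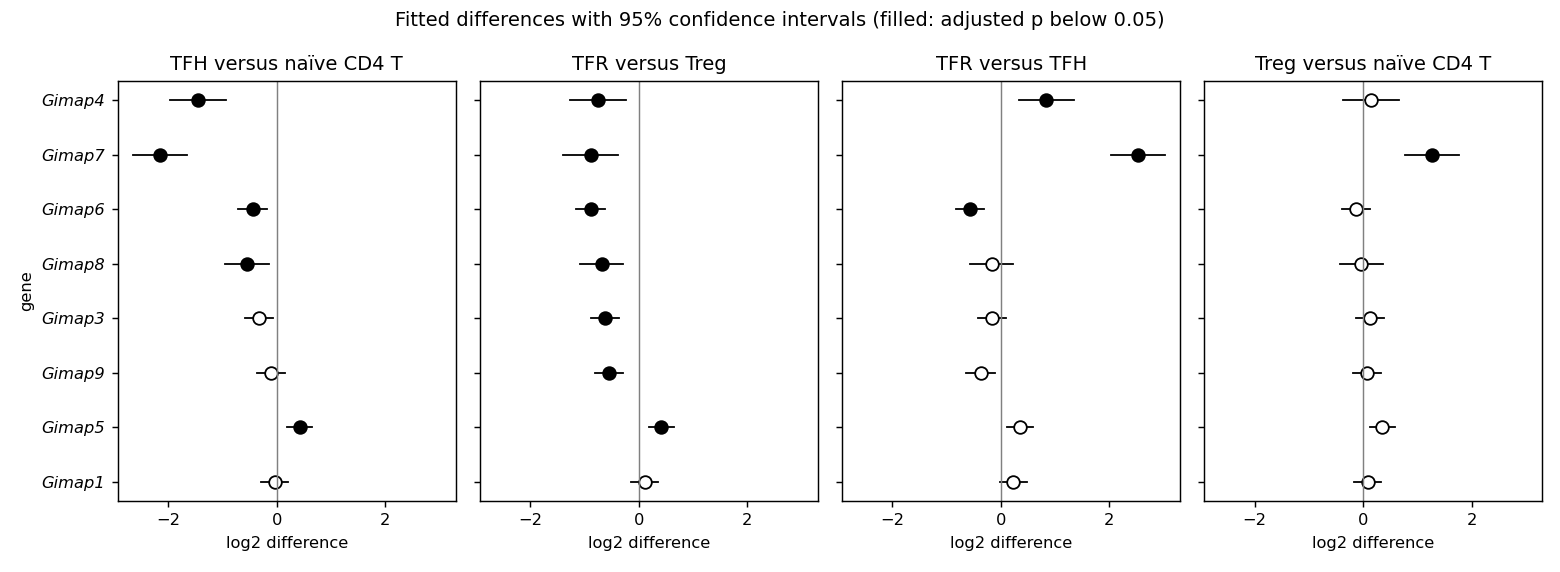
Fitted log2 differences of the 8 Gimap genes (points) with 95% confidence intervals (lines) in 4 comparisons, where filled points passed an adjusted p below 0.05. For TFH versus naïve CD4 T cells *Gimap7* (-2.15) and *Gimap4* (-1.45) stand apart from the rest, whereas 6 members lie between -0.89 and -0.55 for TFR versus Treg cells.

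Counted by comparison, TFH versus naïve CD4 T cells had 4 members called lower (*Gimap7*, *Gimap4*, *Gimap8*, *Gimap6*) and 1 called higher (*Gimap5*), beside 25.6% of all genes lower and 20.9% higher. TFR versus Treg cells had 6 members called lower (*Gimap7*, *Gimap6*, *Gimap4*, *Gimap8*, *Gimap3*, *Gimap9*) and *Gimap5* called higher, beside 20.9% and 18.7% of all genes. At each of the 2 days, the single-array differences had the sign of the fitted one for all 8 members in both comparisons. With 1 array left out, the count for TFH versus naïve CD4 T cells was 2 without either naïve array or without the d12 TFH array, 3 without either TFR array and 5 without the d25 TFH or either Treg array, and *Gimap4* and *Gimap7* were called each time. The count for TFR versus Treg cells was 1 without either Treg array or without the d12 TFR array and 2 without the d25 TFR array, with *Gimap6* called each time. Calls over all genes became fewer as well: for TFH versus naïve CD4 T cells they went from 4034 lower and 3297 higher to 2074 and 2236 without the d12 naïve array, and for TFR versus Treg cells from 3301 lower and 2948 higher to 1092 and 1573 without the d12 Treg array.

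The follicular cell types were also compared with each other. *Gimap7* was higher in TFR than in TFH cells by 2.52 ± 0.19 (5.74-fold, adjusted p = 0.00222) and *Gimap4* by 0.84 ± 0.20 (1.79-fold, adjusted p = 0.0429), and *Gimap6* was lower by 0.57 ± 0.10 (1.49-fold, adjusted p = 0.0209). These 2 higher and 1 lower of 8 members stand beside 11.6% of all genes called higher and 10.5% lower. *Gimap5* (0.35, adjusted p = 0.0550) and *Gimap9* (-0.37, adjusted p = 0.0607) just missed the threshold. The *Gimap7* call was kept under all 18 alternative settings, but the count of 3 members was 1 without either Treg array, either TFR array or the d25 TFH array. With the slide in place of the day, *Gimap4* (adjusted p = 0.178) and *Gimap6* (adjusted p = 0.104) were not called.

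Between the progenitors, *Gimap7* was the only member called in Treg versus naïve CD4 T cells (1 of 8 higher, 0 lower), beside 5.89% of all genes higher and 3.98% lower. *Gimap5* was 0.36 higher in Treg cells with both Treg arrays above both naïve arrays, but was not called (adjusted p = 0.0827), except with a trended robust variance prior (adjusted p = 0.0335). The estimates of the other 6 members lay between -0.13 and 0.15. The *Gimap7* call was lost (count of 0) without any 1 of the naïve, Treg or TFR arrays. At d25, naïve CD4 T and TFH cells were hybridized on another slide than Treg and TFR cells, and with the slide in place of the day in the fit *Gimap7* was not called either.

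Whether the change from progenitor to follicular cell differed between the Foxp3+ and the Foxp3- lineage was tested as the difference of the differences. In limma 0 of 8 members were called, with 3 members at an unadjusted p below 0.05, beside 4.03% of all genes called higher and 4.46% lower. *Gimap7* came closest, since its fall was larger in TFH than in TFR cells by 1.26 ± 0.27 (adjusted p = 0.0615), and it was called in 5 of 18 alternative settings. *Gimap6* (-0.44, adjusted p = 0.144) and *Gimap9* (-0.45, adjusted p = 0.141) had the opposite sign, a larger fall in TFR cells. For *Gimap5* the estimate was 0.00 with a 95% interval from -0.34 to 0.33. The smaller number of calls for TFH than for TFR cells is therefore not shown to be a difference between the lineages.

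No member was called for d25 versus d12 (0 of 8, with 2 at an unadjusted p below 0.05), beside 0.019% of all genes called higher and 0.0507% lower. *Gimap8* (0.44 ± 0.11, adjusted p = 0.0988) and *Gimap6* (0.33 ± 0.07, adjusted p = 0.0851) had the largest estimates and were higher at d25 in all 4 cell types. *Gimap4* and *Gimap7* were lower at d25 than at d12 in TFH cells (-0.39 and -0.32) and higher in the other 3 cell types. All d12 samples were on 1 slide and all d25 samples on the other 2, so day and slide cannot be told apart.

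Across the 8 arrays the members fell into groups of like profiles. *Gimap6* correlated with *Gimap9* (Pearson r = 0.93), *Gimap8* (0.91) and *Gimap3* (0.88), and *Gimap4* with *Gimap7* (0.89). *Gimap4* and *Gimap6* were less alike (0.44), and *Gimap5* ran against *Gimap6* (-0.74) and *Gimap9* (-0.70). The arrays share 4 cell types, 2 days and 1 normalization, so these values describe the profiles and carry no test.

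The genes most like each member were sought among 5867 other genes that exceeded background clearly on every array and varied by at least 1 on the log2 scale. For *Gimap4* the nearest was *Tob1*, which encodes an antiproliferative protein of resting T cells (r = 0.99 over 8 arrays). For *Tob1*, naïve cells gave 695 RU at d12 and 836 RU at d25, TFH cells 287 and 199 RU, Treg cells 713 and 905 RU, and TFR cells 365 and 454 RU, in the same order of cell types as *Gimap4*. An unnamed transcript (probe A_55_P1999805) and *Car15* followed, both with r = 0.99. *Gimap7* was most like *Eif4e3*, which encodes a cap-binding protein (r = 0.99, -1.83 in TFH and -0.46 in TFR cells), *Fam169b* and *Ppa1*. For *Gimap6* they were *Ablim1*, *Zeb1*, a zinc finger repressor, and *Tsr2*, each with r = 0.98, and for *Gimap9* *Nipal1*, *9130002K18Rik* and *Bach1*, a transcriptional repressor, with r of 0.97 to 0.98. *Gimap8* was nearest to *Fam178a*, *Trim34b* and *Zdhhc17* (0.99) and *Gimap3* to *Seh1l*, *Aldh3a2* and *Rcn2* (0.98 to 0.99). *Gimap5* was nearest to genes with positive differences in both follicular cell types, *Sh3bgrl*, *Snx13* and *Arhgap21* (0.99). The highest values for *Gimap1* were lower (*Rbl2*, 0.94, probe A_55_P2086835, 0.94, and *Myo5a*, 0.92).

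The neighborhood of the cluster was examined next, taking every gene with a probe from 500 kb before the first to 500 kb after the last Gimap probe. Of 29 such genes 15 were tested, of which 7 were called higher and 4 lower in follicular than in progenitor cells. Of the members, 1 was called higher and 6 lower, and of all genes tested 25.9% higher and 33.2% lower. *Igf2bp3*, *Aoc1* and *Sspo* were above background on only 2 arrays each. These genes entered the tests through the cell type where they were high, so the counts of neighbors and members are not compared. *Repin1*, a zinc finger gene before the cluster with the largest difference among neighbors above background on all arrays, gave 465 RU at d12 and 481 RU at d25 in naïve cells but 2447 and 2489 RU in TFH cells, and 511 and 518 RU in Treg cells but 2321 and 2232 RU in the TFR samples. Its differences of 2.38 ± 0.08 and 2.15 ± 0.08 (adjusted p = 0.000161 and 0.000437) were opposite in sign to those of most members. On the other side of the cluster, *Tmem176b* and *Tmem176a*, which code for related membrane proteins, rose in TFH cells by 1.64 ± 0.20 and 1.09 ± 0.24 (adjusted p = 0.00311 and 0.0203), with 0.11 and -0.51 in TFR cells (adjusted p = 0.684 and 0.161).

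A pair of other transcripts has its probes inside the cluster, between *Gimap7* and *Gimap1*. *Gimap1os*, named as the opposite strand of *Gimap1* and measured by a probe on the minus strand, gave 12057 RU in naïve cells at d12 and 14596 RU at d25, 14134 and 15987 RU in TFH, 10925 and 11910 RU in Treg, and 7895 and 10656 RU in the TFR samples. It was not called in TFH (0.18, adjusted p = 0.226) or TFR cells (-0.31, adjusted p = 0.0731). *A130009E19Rik* was dim, with 160 RU at d12 and 128 RU at d25 in naïve cells, 96 and 33 RU in TFH, 189 and 131 RU in Treg, and 61 and 21 RU in the TFR samples, was above background on 6 arrays, and was called lower in both follicular cell types (adjusted p = 0.0355 and 0.0115).

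Of the remaining tested neighbors, *AI854703* fell in both lineages (-0.44 and -1.18, adjusted p = 0.0256 and 0.00235), and *Zfp467* (-1.11, adjusted p = 0.00214) and *AK034606* (-0.35, adjusted p = 0.0232) fell in TFH cells. *Malsu1* rose in both (0.47 and 0.49, adjusted p = 0.0212 and 0.0230) and *Lrrc61* in TFH cells (0.42, adjusted p = 0.0139). *Igf2bp3*, *Aoc1* and *Sspo* were called higher in follicular cells. They stood at 20 to 25 RU in all progenitor samples, near the lower limit of 20 RU, so their differences are not sized here. In TFH cells at d12 and d25, *Aoc1* (20 and 32 RU) and *Sspo* (20 and 20 RU) were also at or near this limit. In TFR cells *Aoc1* gave 78 and 287 RU and *Sspo* 70 and 110 RU. *Igf2bp3* gave 205 and 91 RU in TFH and 43 and 49 RU in TFR cells. *Tra2a* and *Krba1* were not called.

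**Figure D4:**
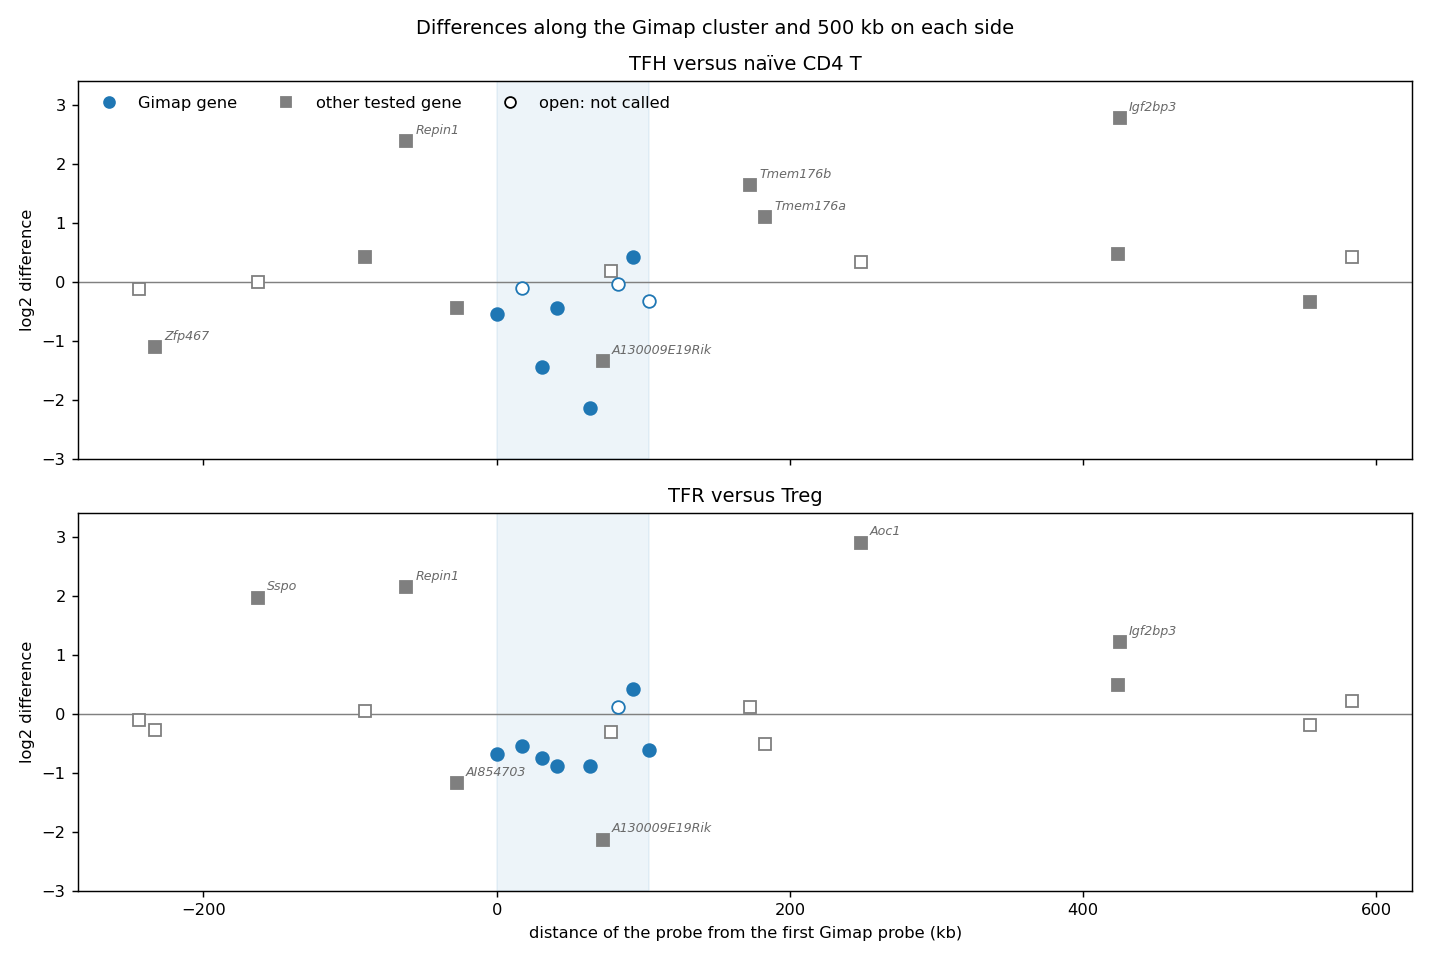
Fitted log2 differences of Gimap genes (blue circles) and other tested genes (grey squares) against the distance of their probe from the first Gimap probe (kb), for TFH versus naïve CD4 T cells above and TFR versus Treg cells below, with open symbols for genes not called and the 103.7 kb of the cluster shaded. *Repin1* (2.38 and 2.15) lies on the side opposite to *Gimap7* (-2.15 and -0.89), and *Gimap5* is the only member above 0.4 in either panel.

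Lists of other immune GTPases, of T cell quiescence and survival, of the BCL-2 family, of autophagy and of the Notch pathway were set beside the family. The counts of each list stand beside 25.9% of all genes tested called higher and 33.2% called lower in follicular than in progenitor cells. In the comparison of follicular with progenitor cells, 15 of 16 other immune GTPases tested (guanylate-binding proteins, immunity-related GTPases and Mx proteins) were called lower and 1, *Mx1*, was called higher (0.95 ± 0.09, adjusted p = 0.00126), with a median of -0.99. The largest falls of this list were those of *Tgtp1*, *Gbp7* (-1.94) and *Gbp6* (-1.51), interferon-inducible GTPases of pathogen defense. *Tgtp1* was above background on 7 arrays, with 46 RU in TFR cells at d12, so that its difference is not sized here. For *Igtp*, a bright member of the list, naïve cells gave 66546 RU at d12 and 77827 RU at d25, TFH cells 34473 and 42420 RU, Treg cells 95696 and 112386 RU, and TFR cells 38830 and 47922 RU.

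Genes of T cell quiescence and survival fell as well, with 15 of 18 called lower, 0 higher and a median of -1.20. *S1pr1* (-3.82), *Ccr7* (-3.58) and *Satb1* (-3.44), which serve egress, lymph node homing and chromatin organization, had the largest differences. *Il7r*, the receptor chain for the survival cytokine IL-7, differed between the lineages. It fell by 4.73 ± 0.29 from naïve CD4 T to TFH cells (adjusted p = 0.000501), whereas the TFR versus Treg difference was -0.63 ± 0.29 (adjusted p = 0.151), and the difference of these differences was called (4.10 ± 0.42, adjusted p = 0.0107). *Tsc1*, *Btg1* and *Btg2* were not called (-0.08, -0.22 and -0.12).

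The BCL-2 family split, with 6 of 11 genes called higher, 3 lower and a median of 0.48. Among anti-apoptotic members, *Bcl2* fell (-2.06 ± 0.13, adjusted p = 0.000324) with 4731 and 4737 RU in naïve but 1226 and 1924 RU in TFH cells, and 7021 and 7491 RU in Treg but 1213 and 1351 RU in TFR cells. *Mcl1* fell by 0.76 ± 0.09 (adjusted p = 0.00184), whereas *Bcl2l2* was called higher (adjusted p = 0.00112). *Bcl2l2* was above background on 6 arrays, with 60 and 53 RU in naïve cells, so that its difference is not sized here. *Bcl2l1*, also anti-apoptotic, gave 6872 and 7428 RU in Treg and 12985 and 13849 RU in TFR cells. It gave 2500 and 3370 RU in naïve and 3025 and 2200 RU in TFH cells. Of the pro-apoptotic genes, *Pmaip1*, which encodes NOXA, rose by 2.62 ± 0.26 (adjusted p = 0.00131). *Bax*, *Bak1*, *Bad* and *Bid* had higher signals in TFH than naïve and in TFR than Treg cells at both days. *Bbc3* was higher in TFR cells at both days, but in TFH cells only at d12. *Bcl2l11*, which encodes BIM, was called lower (adjusted p = 0.0190). It was above background on 7 arrays, with 47 RU in TFH cells at d12, so its difference is not sized here.

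Genes of the ATG8 family and of autophagy, the pathway to which *Gimap6* is linked, had 4 of 12 called higher and 4 lower, with a median of -0.07. *Gabarapl1*, an ATG8 gene, rose most, by 2.69 ± 0.16 (adjusted p = 0.000307), from 794 to 2763 RU in progenitors to 8584 to 11380 RU in follicular cells. *Atg7* (0.49) and *Atg16l1* (-0.40) came next in size. *Gabarapl2* had a difference of 0.03 and was not called (adjusted p = 0.736). Of 7 Notch pathway genes tested, 2 were called higher and 3 lower, beside 25.9% and 33.2% of all genes. They were included because Notch signaling has been linked to Gimap expression. The 2 higher genes had the largest differences: the Notch target *Hey1*, with 30 to 179 RU in progenitors and 719 to 2272 RU in follicular cells (adjusted p = 0.000146), and the receptor gene *Notch3*, with 334 and 211 RU in TFH cells and 20 RU, the lower limit, on all other arrays (adjusted p = 0.000571). *Hey1* was above background on 6 and *Notch3* on 2 arrays, so that their differences are not sized here. *Dtx1* fell by 1.21 ± 0.07 (adjusted p = 0.000281) and *Notch1* was at -0.17 (adjusted p = 0.577). The 7 proliferation markers tested were called higher, with a median of 2.85 and *Cdk1*, *Bub1* and *Birc5* in front.

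**Figure D5:**
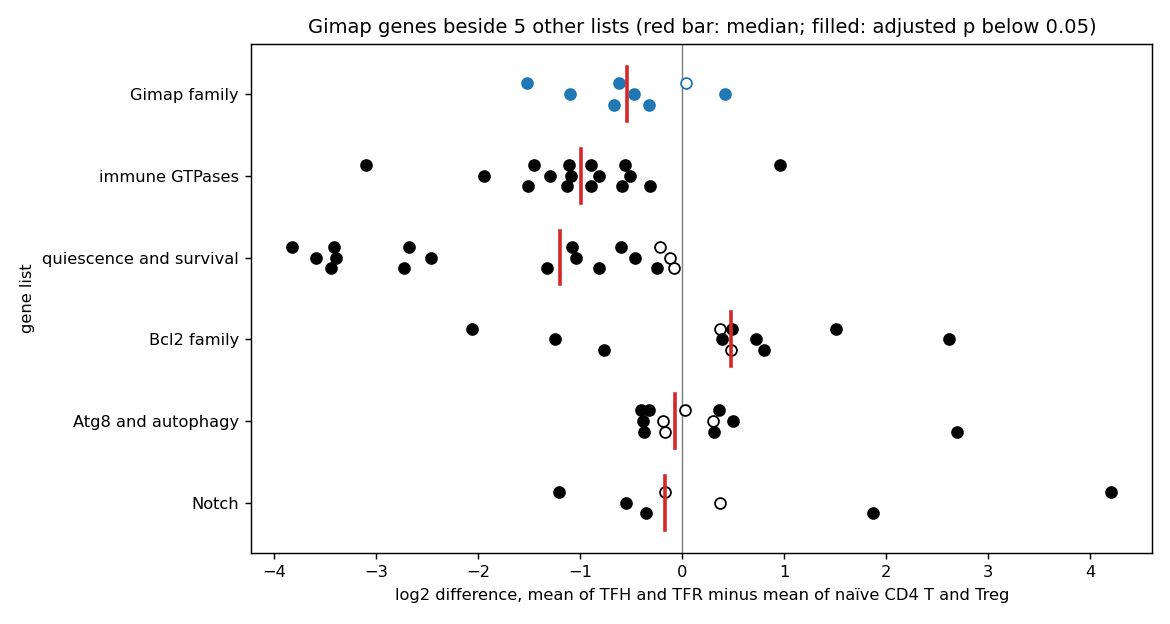
Log2 differences between follicular and progenitor cells for the Gimap family and 5 other lists, 1 point per tested gene (filled, adjusted p below 0.05) with the list's median as a red bar. The medians were -0.54 for Gimap genes, -0.99 for the other immune GTPases, -1.20 for quiescence and survival, 0.48 for the BCL-2 family, -0.07 for autophagy and -0.17 for Notch genes.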

How the data were processed

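The authors scanned the arrays and extracted spots with Agilent Feature Extraction (version 10.7.3.1 per the submitters' processing notes). The deposited scanner files hold background-corrected spot intensities (gProcessedSignal), and a deposited table holds normalized intensities, for which the authors took the geometric mean over replicate spots, quantile-normalized the arrays, set the 75th percentile to 1500 and raised values under 20 to 20. The same steps were run here on the spot intensities, after exclusion of flagged spots, of spots outside 1.42 times the interquartile range and of spots with a pixel coefficient of variation above 0.5. The result correlated with the authors' table at r = 0.9994 on each array, and the members' log2 values differed from it by -0.39 to 0.24. The 75th percentile before scaling was 482 to 878, and 46.3% to 50.4% of probes were well above background.

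The probe with the highest mean log2 signal stood for a gene. It entered the tests if both arrays of any cell type had it well above background. Cell type and day were additive terms in limma 3.58.1 (R 4.3.3, lmFit and eBayes, 3 residual and 1.89 prior degrees of freedom). The same fit was also run on simulated data built from the genes' mean signals and the variance prior of these data. The day term is the only block, since the labels give no replicate numbers. No source names separate animals for the 2 arrays of a cell type other than the days, so p-values measure the spread between these arrays. The study's methods name an analysis of variance, for which replicates per cell type and day are not analysed here. The series' design speaks of 3 experiments at d12 and 2 at d25, of which 1 array per cell type and day is analysed here, so the error is the spread left after the day term and not one between experiments of the same day.

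Named genes are the members, the 3 genes most like each by Pearson r, all tested genes within 500 kb, and up to 3 genes with the largest difference from each list. Others named in the text (*Il7r*, *Igtp*, *Mcl1*, *Bcl2l1*, *Bcl2l11*, *Bax*, *Bak1*, *Bad*, *Bid*, *Bbc3*, *Mx1*, *Gabarapl2*, *Notch1*, *Tsc1*, *Btg1*, *Btg2*) were chosen after their values were seen. Members, lists and tests were chosen with earlier results of these data known. Gene names are those of the files. RefSeq accessions of all 10 member probes matched the same symbols in a GRCm38.p6 table. The alternatives tried are given in the closing section.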

Additional observations from a re-analysis of the deposited data

Results flagged for a closer look

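The Treg versus naïve CD4 T difference had opposite signs at the 2 days for *Gimap8*, with 0.0251 at d12 and -0.0871 at d25, and for *Gimap9*, with 0.1592 at d12 and -0.0133 at d25. Each value comes from 1 array per cell type, both genes were not called in this comparison, and the difference between the days was not tested.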

How the results depend on the processing

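In total, 992 values of the 8 members were recomputed under 18 alternatives, and 971 kept their sign. The other 21 concerned differences not called in the main setting. Without quantile normalization, the Treg versus naïve CD4 T difference turned to -0.0568 for *Gimap1*, -0.0103 for *Gimap4* and -0.00554 for *Gimap9*, that of d25 versus d12 to -0.0865 for *Gimap1* and -0.0601 for *Gimap4*, the follicular versus progenitor difference of *Gimap1* to -0.0332 and the lineage difference of *Gimap5* to 0.0591. The latter was 0.00913 with normexp background correction, and *Gimap8* had 0.0167 in Treg versus naïve CD4 T cells with the slide in place of the day. With 1 array left out, values that turned in sign ranged from -0.0880 to 0.0796 (*Gimap5*) and -0.313 to 0.0311 (*Gimap8*) for the lineage difference, from -0.203 to 0.141 (*Gimap8*) and -0.0173 to 0.310 (*Gimap4*) for Treg versus naïve CD4 T cells, and from -0.0767 to 0.0137 for *Gimap1* in TFH versus naïve CD4 T cells. They ranged from -0.0123 to 0.0909 for *Gimap1* in follicular versus progenitor cells and from -0.00528 to 0.233 for *Gimap4* in d25 versus d12.

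Numbers of called members changed more. Without the day term, that is with no replicate block, 2 members were called for TFH versus naïve CD4 T cells, in place of 5. No filter on dim probes gave 4 for TFR versus Treg, 1 for TFR versus TFH and 0 for Treg versus naïve CD4 T cells. The slide in place of the day gave 4 for TFH versus naïve CD4 T, 5 for TFR versus Treg, 1 for TFR versus TFH and 0 for Treg versus naïve CD4 T cells. Testing only genes above background on all arrays gave 5 for TFR versus TFH and 1 for the lineage difference, normexp correction 1 for the latter, and a trended robust prior 5, 2, 1 and 2 for TFR versus TFH, Treg versus naïve CD4 T, the lineage difference and d25 versus d12. Calls over all genes moved as well. With the trended robust prior they were 779 higher and 471 lower for d25 versus d12, in place of 3 and 8. With no filter on dim probes they were 1970 higher and 1883 lower of 29924 genes for TFR versus Treg cells, in place of 2948 and 3301 of 15764. With the slide in place of the day they were 765 and 584 for TFR versus TFH cells, in place of 1834 and 1652. A required log2 difference of at least 1 left 2 for TFH versus naïve CD4 T, 0 for TFR versus Treg, 1 for TFR versus TFH and 2 for follicular versus progenitor cells. With 1 array left out, where the remaining array is assumed to vary like the other cell types and fewer degrees of freedom remain, the counts were 2 to 5 for TFH versus naïve CD4 T, 1 to 7 for TFR versus Treg, 1 to 3 for TFR versus TFH, 0 to 1 for Treg versus naïve CD4 T, 0 to 1 for the lineage difference and 6 to 7 for follicular versus progenitor cells. For TFR versus Treg cells, the count was 1 or 2 without any one of the Treg and TFR arrays and 5 or 7 without any of the others. Apart from this, the cause of the changes was not tested. The follicular versus progenitor calls of *Gimap3*, *Gimap4*, *Gimap5*, *Gimap6* and *Gimap7* held under all 18 alternatives, whereas a required difference of at least 1 left *Gimap4* and *Gimap7*.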
